A study of Saccharomyces cerevisiae with 22 samples.

Results

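The proteasome subunits of Saccharomyces cerevisiae described here are 32 genes that encode the 20S core and the 19S regulatory particle. They were taken by name from the gene symbols of the array annotation, and all 32 were found, each with 1 probe, among 5311 genes with a symbol. The core holds 7 alpha and 7 beta subunits, and the regulatory particle 10 subunits of the base and 8 of the lid. No cut on expression values was used to choose them, but the list was made with earlier results of these data known.

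The proteasome is the protease that degrades proteins marked with ubiquitin. In the core, rings of alpha subunits guard the entrance and rings of beta subunits carry the catalytic sites. The base of the regulatory particle contains the ATPases of the RPT series, which unfold substrates and feed them into the core, together with RPN scaffold proteins and ubiquitin receptors, while the lid includes the enzyme that removes ubiquitin. In yeast most of these genes are activated by Rpn4, a short-lived transcription factor that the proteasome itself degrades.

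Wild-type haploid strain BY4742 was used throughout, with no other allele or agent, in synthetic complete medium with glucose. For heat shock, cells grown at 30 °C were pelleted, resuspended in medium at 37 °C and harvested after 5, 15, 30, 45 or 60 min. For cooling, labelled cold shock, cells grown at 37 °C were resuspended in the same way at 30 °C and harvested at 0, 5, 15, 30, 45 or 60 min. Each of the 11 conditions has 2 arrays, a with the sample in Cy3 and b with the sample in Cy5, and the other channel always holds RNA of one culture of untreated BY4742, the common reference.

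Values are log2 ratios of sample over common reference, so a value of 1 is a doubling of the relative abundance of an mRNA. Called means an adjusted p below 0.05 (limma across all genes, Benjamini-Hochberg) together with over 1.7-fold, which is 0.77 in log2. A ratio against the reference leaves out the spread between control cultures, and n = 2 arrays stands behind every condition. The heat shock series has no sample from before the shift. In its ratios heat, the handling of the cells and a difference between cultures cannot be told apart. The sources disagree on whether the 2 arrays are separate cultures or a dye swap of the same RNA, so the p-values measure only a spread between arrays, which may be technical. In bulk samples, fewer cells of a kind and less RNA per cell cannot be told apart.

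Between 91.9% and 97.6% of an array's spots stood clear of the background in Cy3 and in Cy5, and array a correlated with array b of its condition at 0.940 to 0.991. Arrays of the same dye orientation correlated at between -0.41 and 0.96 over conditions, with the dyes taken from the labels. Of the mating type markers, the alpha genes MF(ALPHA)1, MF(ALPHA)2 and STE3 were read at 9.96 to 49.3, 0.563 to 7.98 and 1.37 to 4.11 times the median signal of an array. The a genes MFA1, MFA2, STE2 and BAR1 were read at no more than 0.584 times. The lowest reading of MF(ALPHA)2 thus lay below the highest of an a gene. Over the conditions MF(ALPHA)2 ranged from -4.94 to -0.64 and STE3 from -2.29 to -0.53 in log2 against the reference. Their part in the results below was not tested. Every subunit was well above background on all 22 arrays, at a mean log2 intensity of 8.03 to 11.57, and the 2 spots of its probe differed on average by 0.029 to 0.060.

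As a group the subunits stood above the reference early in heat shock and, under the main scaling, were back near it within the hour. The median of the 32 genes was 0.31 and 0.26 on arrays a and b at 5 min, 0.61 and 0.53 at 15 min, and 0.56 and 0.52 at 30 min. It then read 0.17 and 0.16 at 45 min and 0.05 and -0.02 at 60 min. With no curve fitted within the arrays the median at 60 min was -0.22, with 30 of the 32 below the reference. The median of all genes lay between -0.01 and 0.01 on every array. In the fit, 27 of the 32 subunits passed the adjusted p alone in the higher direction at 5 min, and all 32 did so at 15 min and at 30 min. Of all genes, 40.4%, 41.9% and 42.1% did so at these times.

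**Figure D1:**
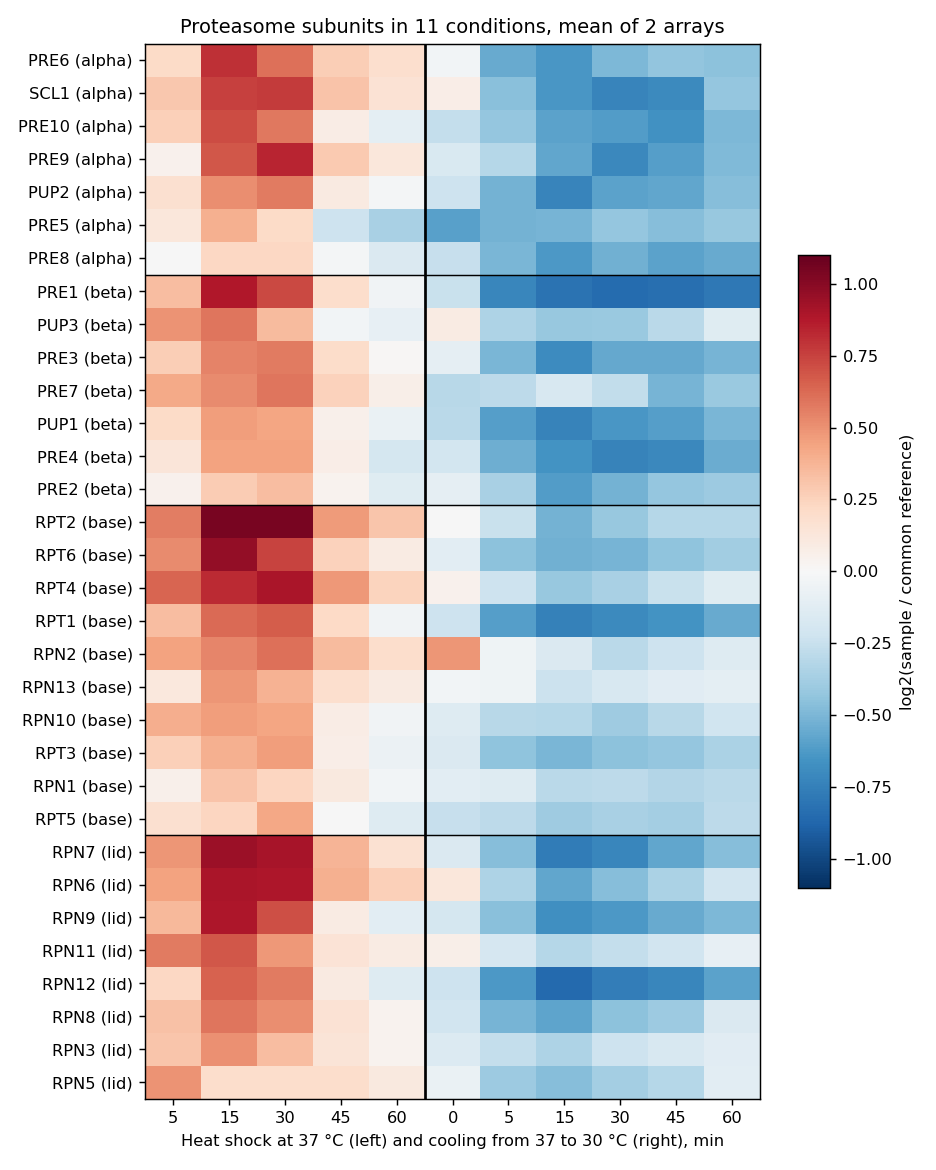
Mean log2 ratio over the common reference (colour scale, 2 arrays per cell) of each of the 32 subunits (rows, ordered within alpha, beta, base and lid by the value at 15 min of heat shock) in the 5 heat shock and 6 cooling conditions (columns, min). Red fills the columns of 15 and 30 min of heat shock, and blue fills those of cooling from 5 min on.

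The changes were small beside the threshold of 1.7-fold. At 5 min 0 subunits were called higher, against 6.87% of all genes, although 27 had an unadjusted limma p below 0.05, and 1 was called without array a of that time. At 15 min 8 of 32 were called (25%, against 8.91% of all genes), and at 30 min 6 of 32 (18.8%, against 7.68%). At 45 min and at 60 min 0 were called higher, against 4.1% and 3.71% of all genes, and 23 and 11 subunits passed the adjusted p alone in that direction, against 38.7% and 37.1% of all genes (25 and 20 at an unadjusted p below 0.05, in either direction). At the same times 0 subunits were called lower, against 6.01%, 9.34%, 7.02%, 1.83% and 1.41% of all genes.

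The 8 subunits called at 15 min were PRE6 and PRE1 of the core, RPT2, RPT4 and RPT6 of the base and RPN6, RPN7 and RPN9 of the lid. Nearest to the threshold from inside were PRE6 and RPT4 at 0.81 and 0.82, and from outside SCL1 and PRE10 at 0.75 and 0.72. Without array b of 15 min SCL1 came to 0.79 and was called too. At 30 min RPT2, RPT4, RPN6 and RPN7 were called with the alpha subunits SCL1 and PRE9. The boundary thus cut through a continuous range of values, which the 32 subunits filled between 0.19 and 1.04 at 15 min. The order of single subunits given below is that of the main scaling, print-tip loess, and other scalings put other subunits first or last in several roles.

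Among the alpha subunits, which form the outer rings of the core, PRE6 was highest and PRE8 lowest at 15 min. PRE6 read 0.24 and 0.18 at 5 min, 0.81 and 0.81 at 15 min, 0.59 and 0.62 at 30 min, 0.25 and 0.29 at 45 min and 0.22 and 0.14 at 60 min. PRE8 read -0.02 and 0.00 at 5 min, 0.18 and 0.27 at 15 min, 0.19 and 0.27 at 30 min, -0.09 and 0.04 at 45 min and -0.22 and -0.09 at 60 min. At 15 min both arrays of PRE6 lay above both of PRE8. The fitted change at 15 min was 0.81 ± 0.04 (SE, limma adjusted p = 5.61e-11) for PRE6 and 0.23 for PRE8.

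The catalytic beta subunits are PRE3, PUP1 and PRE2, with caspase-like, trypsin-like and chymotrypsin-like activity. They read 0.55, 0.46 and 0.28 at 15 min, all below the threshold, and PRE2 was the lowest of the beta subunits. The highest was PRE1, a beta subunit without a catalytic site. PRE1 read 0.28 and 0.39 at 5 min, 0.88 and 0.87 at 15 min, 0.70 and 0.74 at 30 min, 0.17 and 0.21 at 45 min and -0.05 and -0.04 at 60 min. Under the main scaling it was thus back at the reference on both arrays after an hour. Its fitted change at 15 min was 0.88 ± 0.03 (SE, limma adjusted p = 1.26e-13). The 2 arrays of PRE2 were at 0.23 and 0.33, and with 1 loess curve per array in place of 1 per print block PRE2 came to 0.74.

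In the base, RPT2, an ATPase with a tail that opens the core gate, had the largest change of any subunit at 15 min under the main scaling. It read 0.62 and 0.50 at 5 min, 1.11 and 0.98 at 15 min, 1.18 and 0.90 at 30 min, 0.51 and 0.43 at 45 min and 0.34 and 0.26 at 60 min. Its arrays at 15 and 30 min all lay above those at the other times, and under the main scaling those at 60 min were still above the reference. The fitted change at 15 min was 1.04 ± 0.05 (SE, limma adjusted p = 4.52e-12). It was also highest with 1 curve per array, at 1.24, while SCL1 was at 1.07 in the deposited log2 ratios, where RPT2 was at 0.83, RPN5 with no curve (0.91) and with external control spots (0.71), and PRE1 with the 37 °C culture as baseline (1.12). Under the main scaling the ATPases were not alike, since RPT6 and RPT4 stood at 0.96 and 0.82, RPT1 at 0.62, RPT3 at 0.39 and RPT5 at 0.23. RPT5 read 0.14 and 0.33 on its arrays, and 0.53 with a single curve per array. The scaffold subunits RPN1 and RPN2 stood at 0.32 and 0.53, and the ubiquitin receptors RPN10 and RPN13 at 0.46 and 0.49.

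In the lid, RPN7 was highest. It read 0.49 and 0.48 at 5 min, 0.93 and 0.95 at 15 min, 0.97 and 0.84 at 30 min, 0.39 and 0.36 at 45 min and 0.16 and 0.18 at 60 min. Its arrays stayed close to each other at every time, and both peaks stood clear of the other times. The fitted change at 15 min was 0.94 ± 0.03 (SE, limma adjusted p = 3.73e-14). RPN6 and RPN9 both came to 0.89, and RPN11, the lid's deubiquitinating enzyme, to 0.69.

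**Figure D2:**
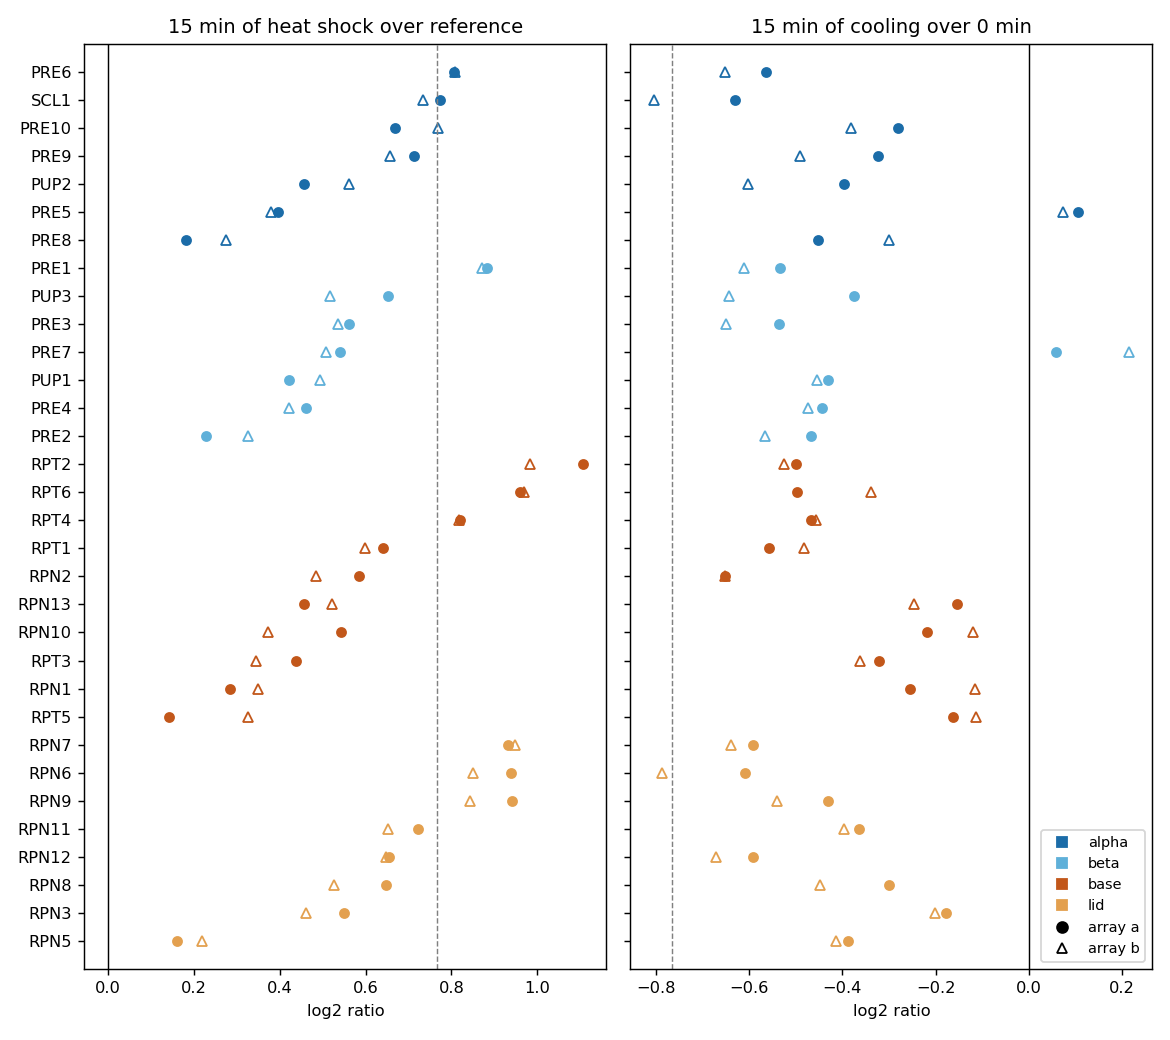
Log2 ratio of each subunit on array a (filled circles) and array b (open triangles), at 15 min of heat shock over the common reference (left) and at 15 min of cooling over 0 min (right). Dashed lines mark 1.7-fold. All 32 subunits lie above 0 on both arrays on the left, and all but PRE5 and PRE7 lie below 0 on both arrays on the right.

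RPN5 had a course of its own under the main normalisation. It read 0.49 and 0.49 at 5 min, 0.16 and 0.22 at 15 min, 0.21 and 0.17 at 30 min, 0.18 and 0.20 at 45 min and 0.15 and 0.06 at 60 min. It was the 1 subunit highest at 5 min, and it was lower at 15 than at 5 min by 0.30 ± 0.05 (SE, limma adjusted p = 6.11e-05). This rested on the curve fitted to the print block of its spots. With 1 curve per array RPN5 came to 0.70 at 5 min and 1.16 at 15 min, with no curve to 0.61 and 0.91, and in the deposited log2 ratios to 0.64 and -0.06. The lowest subunit under one scaling was therefore the second highest under another, and its direction between 5 and 15 min was not settled.

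**Figure D3:**
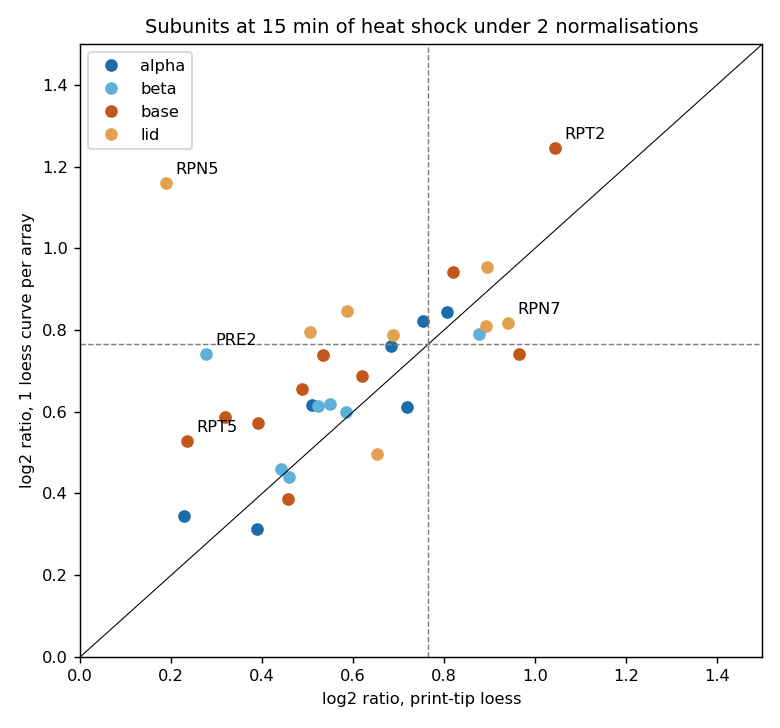
Log2 ratio of each of the 32 subunits (points, coloured by role) at 15 min of heat shock with print-tip loess (horizontal axis) and with 1 loess curve per array (vertical axis). Dashed lines mark 1.7-fold and the solid line equal values. RPN5, at 0.19 and 1.16, and PRE2, at 0.28 and 0.74, moved by more than 0.3, and the other 30 subunits by 0.3 or less.

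By time, 18 subunits had their highest mean at 15 min, 13 at 30 min and 1 at 5 min. These peaks were flat, and in 20 subunits the means at 15 and 30 min lay within 0.1 of each other. Between 5 and 15 min the median change was 0.27, with 26 subunits past the adjusted p in the higher direction and 1, RPN5, in the lower (27.2% and 27.6% of all genes). At 1.7-fold 0 were called higher between these times, against 2.13% of all genes, with 28 at an unadjusted p below 0.05. In 28 subunits both arrays at 15 min lay above both arrays at 5 min.

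The fall from 15 to 60 min had a median of -0.57. Of the 32 subunits, 31 passed the adjusted p in the lower direction (34.2% of all genes), RPN5 being the exception, and 6 were called lower (5.1% of all genes). RPN9 fell most under the main scaling, RPT2 with 1 curve per array or no curve, PRE10 with external control spots and PRE1 in the deposited log2 ratios. RPN9 read 0.94 and 0.84 at 15 min and -0.01 and -0.23 at 60 min, a difference of -1.01 ± 0.04 (SE, limma adjusted p = 9.72e-12). PRE1, RPT6, PRE10, RPN12 and RPN7 were called as well, at -0.92, -0.87, -0.83, -0.79 and -0.77. RPN7 came to -0.74 and lost its call without array b of 15 min or array a of 60 min, and 4 subunits were called without array b of 60 min. In all 32 subunits both arrays at 60 min lay below both arrays at 15 min.

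At 60 min of heat shock 11 subunits were past the adjusted p above the reference and 9 below it under the main scaling. Of all genes 37.1% and 33.8% were, so these counts are near the shares of all genes. With no curve 0 subunits were past the adjusted p above the reference and 20 below it. Under the main scaling RPT2 was highest at 0.30 and PRE5, an alpha subunit, lowest at -0.36. The arrays of PRE5 read 0.14 and 0.10 at 5 min, 0.40 and 0.38 at 15 min, 0.19 and 0.22 at 30 min, -0.26 and -0.19 at 45 min and -0.35 and -0.37 at 60 min. It had thus crossed below the reference by 45 min on both arrays.

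Cells kept at 37 °C, which are the 0 min sample of the cooling series, showed no raised level of the subunits. Their median there was -0.15 in the fit, with 21 subunits below and 2 above the reference by adjusted p (32.3% and 36.4% of all genes) and 0 called lower (1.15% of all genes) or higher (2.17%), where 25 had an unadjusted p below 0.05. PRE5 was lowest at -0.59 and -0.61 on its arrays. RPN2, a scaffold of the base, was highest at 0.58 and 0.40 (0.49 ± 0.05, SE, limma adjusted p = 3.51e-07). The 2 subunits above the reference were RPN2 and RPN6. The median at 60 min of heat shock was 0.14 above that of the 37 °C culture, with 18 subunits higher and 1 lower by adjusted p (23% and 21.7% of all genes), 20 at an unadjusted p below 0.05, and 0 called in either direction (1.36% and 0.339%).

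After the shift from 37 to 30 °C the subunits fell, and they fell below the reference. Against 0 min the median change was -0.29, -0.45, -0.40, -0.33 and -0.26 at the 5 times from 5 to 60 min. These comparisons share the 2 arrays of 0 min. By adjusted p alone 25, 29, 28, 29 and 24 of the 32 were lower, where 31.7%, 34.4%, 33.8%, 33.5% and 30.7% of all genes were. Over the reference, the medians of the 2 arrays at 15 min were -0.52 and -0.56.

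Few of these changes reached 1.7-fold. At 5 and 15 min of cooling 0 subunits were called lower, against 3.2% and 5.5% of all genes, while 27 and 31 subunits had an unadjusted limma p below 0.05 in either direction. At 30 min 2 were called (4.42% of all genes), at 45 min 1 (4.14%) and at 60 min 0 (3.46%, with 26 subunits at an unadjusted p below 0.05). The calls were SCL1 and RPN2 at 30 min and SCL1 at 45 min. They lie near the threshold. Without array b of 0 min, 1 call was left at 30 min and 0 at 45 min, without array b of 30 min 1 was left at 30 min, and without array b of 45 min 0 were left at 45 min. Without array a of 0 min, 1 subunit was called at 15 min.

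SCL1, an alpha subunit, was the lowest subunit against 0 min at 15, 30 and 45 min under the main scaling, and RPN2 at 5 and 60 min, at -0.54 and -0.63. At 30 min RPN2 was the lowest with 1 curve per array, with no curve and in the deposited log2 ratios, at -0.86, -0.83 and -0.83, and with external control spots, at -0.76. SCL1 read 0.01 and 0.14 over the reference at 0 min, -0.45 and -0.47 at 5 min, -0.62 and -0.66 at 15 min, -0.74 and -0.72 at 30 min, -0.66 and -0.74 at 45 min and -0.52 and -0.33 at 60 min. Every array from 5 min on lay below both arrays of 0 min. Against 0 min its change was -0.72 ± 0.05 at 15 min (SE, limma adjusted p = 1.54e-08) and -0.80 ± 0.05 at 30 min (adjusted p = 5.91e-09).

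RPN2 started from a higher level. It read 0.58 and 0.40 at 0 min, 0.04 and -0.14 at 5 min, -0.07 and -0.26 at 15 min, -0.16 and -0.43 at 30 min, -0.14 and -0.32 at 45 min and -0.06 and -0.23 at 60 min. Array a lay above array b at every time of cooling shown. Against 0 min its change was -0.65 ± 0.07 at 15 min (SE, limma adjusted p = 6.64e-07) and -0.78 ± 0.07 at 30 min (adjusted p = 1.12e-07).

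RPN6, which clamps the lid to the core, and PRE3, a catalytic beta subunit, had the largest falls of their groups at 15 min under the main scaling, while RPN7 had the largest of the lid with 1 curve per array, no curve or external control spots. RPN6 read 0.13 on both arrays of 0 min and -0.48 and -0.66 at 15 min, a change of -0.70 ± 0.04 (SE, limma adjusted p = 1.67e-09). PRE3 went from -0.10 and -0.11 to -0.63 and -0.76, a change of -0.59 ± 0.06 (SE, limma adjusted p = 5.24e-07). Both were past the adjusted p and short of 1.7-fold.

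PRE5 and PRE7 were the 2 subunits that rose by adjusted p at 15 min under the main scaling (32.4% of all genes). With 1 curve per array 1 subunit did, and with no curve or external control spots 0 did. PRE7 came to 0.05 with no curve. PRE7, a beta subunit, read -0.25 and -0.36 at 0 min and -0.19 and -0.15 at 15 min, and its change of 0.14 passed the adjusted p upward (limma, 0.0149). PRE5 was at -0.59 and -0.61 before the shift and at -0.48 and -0.53 at 15 min, a change of 0.09 (limma adjusted p = 0.0454), and with no curve or with scaling on external control spots its sign turned, to -0.07 and -0.06. These were the lowest subunits of the 37 °C culture, and from 5 min of cooling their levels lay inside the range of the others. Each difference is smaller than the threshold.

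By time, 22 subunits were lowest at 15 min of cooling, 6 at 30 min, 3 at 45 min and 1 at 5 min, and none at 60 min. At 60 min of cooling all 32 were still below the reference on both arrays, with a median of -0.40 in the fit and 30 past the adjusted p (32% of all genes). Only PRE1 was called lower there (1.81% of all genes), at -0.80 and -0.77 on its arrays and -0.79 ± 0.03 in the fit (SE, limma adjusted p = 8.53e-12). In each of the 32 subunits the arrays of 15 and 30 min of heat shock lay above every array from 5 to 60 min of cooling.

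The medians of the core and of the regulatory particle lay closer at some times than at others. At 15 min of heat shock the median was 0.54 for the 14 core genes and 0.60 for the 18 of the regulatory particle, and at 15 min of cooling, against 0 min, -0.48 and -0.41. The core minus regulatory particle difference was -0.09 and -0.04 on the arrays of 15 min of heat shock. The medians lay further apart at 5 min of heat shock, at 0.21 and 0.38, and at 60 min of cooling, at -0.30 and -0.19 against 0 min and -0.48 and -0.25 against the reference.

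Under the main scaling the core stood lower than the regulatory particle on 20 of 22 arrays, all measured against the same reference. At 5 min of heat shock the difference was -0.16 and -0.21, at 15 min of cooling -0.18 and -0.17 over the reference, and at 60 min of cooling -0.30 and -0.18. At 30 min of heat shock it was 0.01 and 0.05, the 1 condition in which the core was not lower under the main scaling. There it came to -0.046 with 1 curve per array, -0.048 with no curve, -0.040 with external control spots and -0.020 in the deposited log2 ratios. The difference between core and regulatory particle was not tested. Under other scalings the difference in the changes on cooling turned sign (with 1 curve per array it was 0.01 at 15 min and 0.05 at 60 min).

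**Figure D4:**
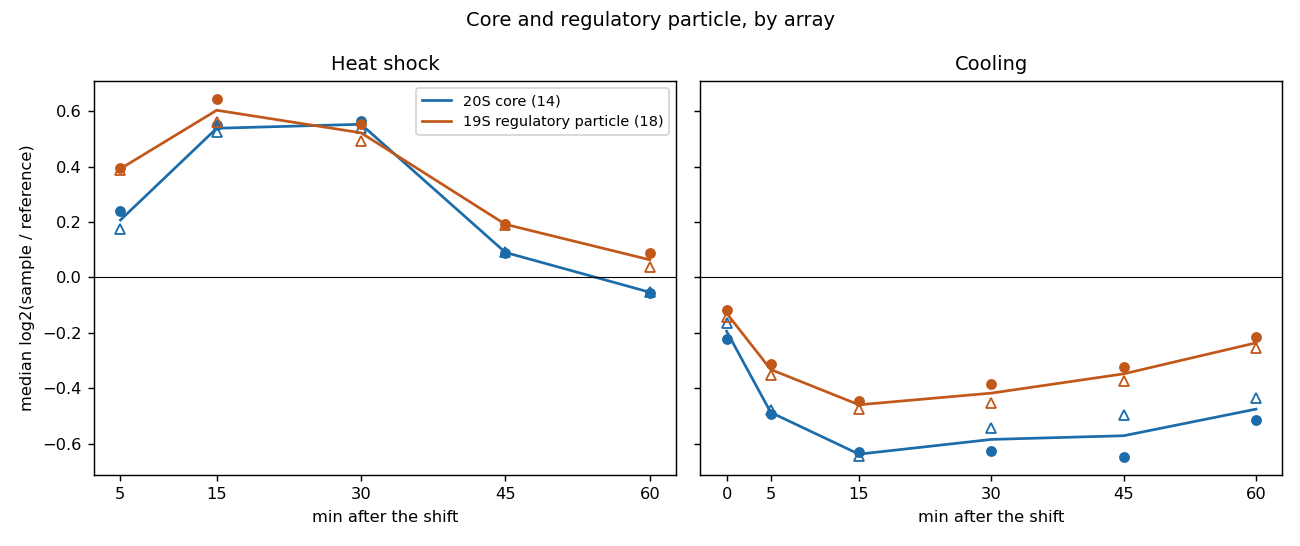
Median log2 ratio over the common reference of the 14 core genes (blue) and the 18 genes of the regulatory particle (orange) against min after the shift, in heat shock (left) and cooling (right). Points are arrays a (filled circles) and b (open triangles) and lines their means. Under the main scaling, shown here, the core lies below except at 30 min of heat shock.

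Within the roles, the medians at 15 min of heat shock were 0.68 for alpha, 0.52 for beta, 0.51 for base and 0.67 for lid subunits. At 5 min they were 0.17, 0.27, 0.37 and 0.40. The alpha subunits were the lowest group at 5 min under every scaling tried. At 15 min they were the highest under the main scaling, while with 1 curve per array the lid was, at 0.81 against 0.62. Between these times all 7 alpha, 5 of 7 beta, 7 of 10 base and 7 of 8 lid subunits passed the adjusted p upward under the main scaling. Of all genes 27.2% did, and 0 subunits were called at 1.7-fold. The median changes were 0.46, 0.25, 0.22 and 0.34, and the difference between the roles was not tested. The alpha group had the largest median change of this interval under every scaling tried. PRE9, an alpha subunit that yeast can live without, rose most under the main scaling, by 0.64. Scaled on external control spots, 0 subunits passed the adjusted p between 5 and 15 min and the median change of the 32 was 0.04.

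Of the genes around the proteasome, 31 were listed as regulators, assembly factors, associated proteins and factors that deliver substrates. At 5, 15 and 30 min of heat shock 3, 7 and 5 of them were called higher, where 6.87%, 8.91% and 7.68% of all genes were, so that the 3 of 31 at 5 min are near the share of all genes. Their medians at these times were 0.22, 0.43 and 0.46. At 15 min of cooling 1 was called lower (5.5% of all genes), and the median was -0.28.

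RPN4, the activator of the proteasome genes, was highest in heat shock at 5 min, before the median of the subunits was. That was the first time sampled, and 27 of the 32 subunits were already higher by adjusted p (40.4% of all genes). RPN4 read 0.70 and 0.89 at 5 min, 0.06 and 0.09 at 15 min, -0.13 and 0.07 at 30 min, -0.13 and 0.05 at 45 min and 0.06 and 0.14 at 60 min. Both arrays of 5 min thus lay far above all arrays of the later times. With 1 curve per array and with no curve RPN4 came to 1.04 at 5 min and 0.29 at 15 min, against 0.08 at 15 min in the main fit. The change at 5 min was 0.79 ± 0.04 (SE, limma adjusted p = 3.11e-11), and 0.74, short of 1.7-fold, without array b of that time. The fall from 5 to 15 min was -0.72 ± 0.06 (SE, limma adjusted p = 5.40e-08), and -0.77, past 1.7-fold, without array a of 5 min. Over the same 10 min the median of the subunits went up by 0.27.

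In cooling RPN4 read -0.18 and 0.01 at 0 min, -0.01 and 0.07 at 5 min, -0.45 and -0.50 at 15 min, -0.52 and -0.47 at 30 min, -0.56 and -0.45 at 45 min and -0.52 and -0.52 at 60 min. At 5 min it had not fallen on either array, while 25 subunits were lower by adjusted p (31.7% of all genes) and 0 were called. With no curve 13 subunits were lower by adjusted p at 5 min, and with external control spots 1 was. The order of RPN4 and the subunits in cooling was not tested. At 15 min the change of RPN4 against 0 min was -0.39 ± 0.06 (SE, limma adjusted p = 1.91e-05). UBR2 and MUB1, which act in the degradation of Rpn4, read 0.22 and 0.12 at 15 min of heat shock, and the transcription factors YAP1 and HSF1 0.66 and 0.52.

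**Figure D5:**
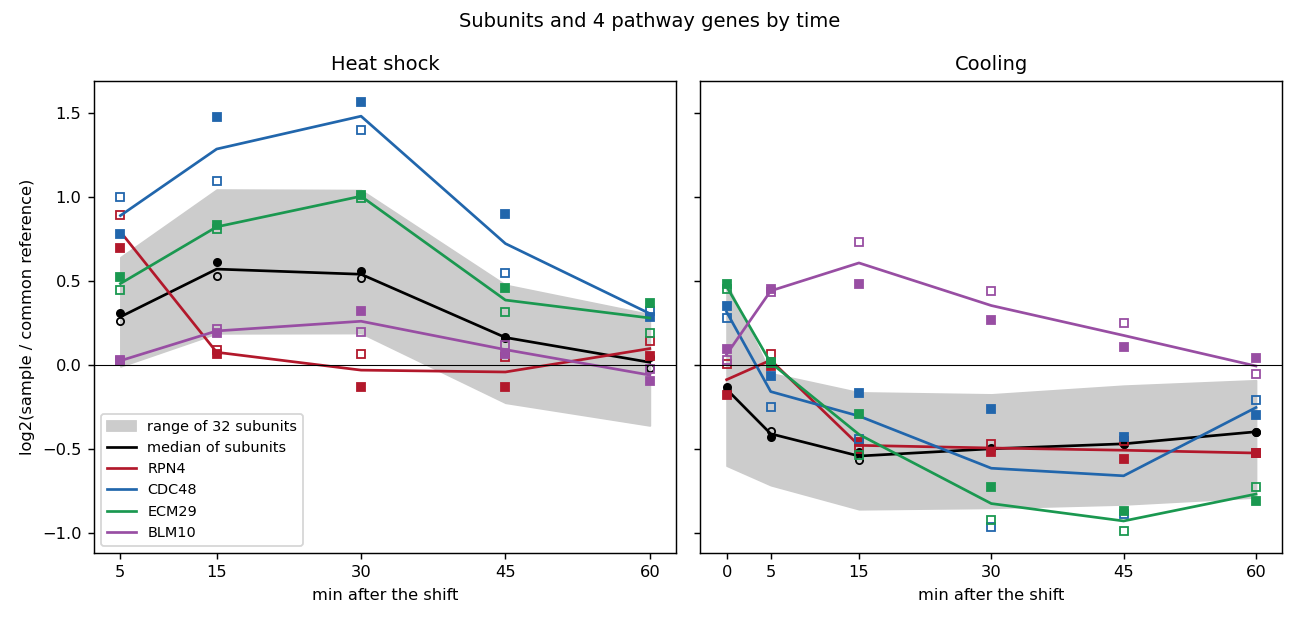
Log2 ratio over the common reference against min after the shift, in heat shock (left) and cooling (right), for the median of the 32 subunits (black), RPN4, CDC48, ECM29 and BLM10. Filled and open points are arrays a and b, lines their means, and the grey band spans the means of the 32 subunits. RPN4 is at 0.79 at 5 min of heat shock and near 0 from 15 min on, when the subunits are at their highest.

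The factors that deliver substrates rose from the first time point, with 9 of 9 past the adjusted p upward at 5 and 15 min (40.4% and 41.9% of all genes) and 4 of 9 called at 15 min (8.91%). CDC48, the ATPase that extracts ubiquitinated proteins, read 0.78 and 1.00 at 5 min, 1.48 and 1.09 at 15 min, 1.56 and 1.40 at 30 min, 0.90 and 0.55 at 45 min and 0.29 and 0.32 at 60 min. Under the main scaling its mean was above that of every subunit at 5, 15, 30 and 45 min. The change at 15 min was 1.29 ± 0.11 (SE, limma adjusted p = 2.10e-08), and it was 0.89 with 1 curve per array, 0.43 with no curve and 0.22 with external control spots. SHP1, a cofactor of Cdc48, and DSK2, a ubiquitin receptor, came to 0.89 and 0.79 at 15 min, and DSK2 came to 0.57 with 1 curve per array, 0.35 with no curve and 0.16 with external control spots.

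UBI4, the polyubiquitin gene of the stress response, gave unlike values in the dye orientations. It read 0.61 and 1.66 at 5 min, 0.70 and 1.96 at 15 min, 0.48 and 1.3 at 30 min, 0.22 and 0.39 at 45 min and 0.03 and 0.57 at 60 min. Array b was above array a at every time. The change at 15 min was 1.33 ± 0.19 (SE, limma adjusted p = 7.11e-06), and 0.85 or 1.81 when array b or array a of that time was left out. It also depended on the scaling, at 2.49 with 1 curve per array, 1.76 with no curve and 1.36 in the deposited log2 ratios. With external control spots it lay between the values with no curve and in the deposited log2 ratios. Its coding repeat is nearly identical to the ubiquitin part of other genes, and the probe's specificity is not given in the sources used here.

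Of the proteins that bind the proteasome, SEM1, ECM29 and HUL5 were called at 15 min of heat shock. SEM1, a small lid subunit that is not among the 32, read 0.52 and 0.41 at 5 min, 0.99 and 0.86 at 15 min, 1.07 and 1.01 at 30 min, 0.75 and 0.74 at 45 min and 0.60 and 0.45 at 60 min. After an hour it was above every one of the 32 subunits. HUL5, a ubiquitin ligase at the proteasome, read 0.65 and 0.49 at 5 min and 0.82 and 0.74 at 15 min. The changes at 15 min were 0.92 ± 0.04 for SEM1 and 0.78 ± 0.04 for HUL5 (SE, limma adjusted p = 1.41e-12 and 1.04e-11), and that of HUL5 fell short of 1.7-fold after a normexp background correction.

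ECM29, which tethers the core to the regulatory particle, fell more than any subunit from 15 min of cooling on under the main scaling, and at 15 min under each scaling tried. It read 0.48 and 0.46 at 0 min, 0.02 and 0.01 at 5 min, -0.29 and -0.53 at 15 min, -0.73 and -0.92 at 30 min, -0.87 and -0.99 at 45 min and -0.81 and -0.72 at 60 min. It was still going down at 30 min, when the median of the subunits had passed its lowest point. Against 0 min its change was -0.88 ± 0.06 at 15 min (SE, limma adjusted p = 9.80e-09) and -1.39 ± 0.06 at 45 min (adjusted p = 7.01e-11). In heat shock it read 0.83 and 0.81 at 15 min and 1.01 and 1.00 at 30 min.

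BLM10, an activator that caps the core in place of the regulatory particle, moved the other way on cooling. It read 0.10 and 0.03 at 0 min, 0.45 and 0.43 at 5 min, 0.48 and 0.73 at 15 min, 0.27 and 0.44 at 30 min, 0.11 and 0.25 at 45 min and 0.04 and -0.05 at 60 min. Its change at 15 min was 0.54 ± 0.07 (SE, limma adjusted p = 9.52e-06), past the adjusted p and under 1.7-fold. In heat shock BLM10 reached 0.20 at 15 min.

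The 10 assembly factors of the proteasome had a median of 0.10 at 15 min of heat shock, against 0.57 in the subunits. Of them 0 were called higher or lower (8.91% and 9.34% of all genes), and 5 were higher and 2 lower by adjusted p (41.9% and 41.3%), with 8 at an unadjusted limma p below 0.05. Over the means of the 11 conditions, Pearson's r with the mean of the subunits was 0.99 for HSM3, 0.96 for NAS6, 0.95 for RPN14 and UMP1, 0.89 for PBA1, 0.86 for ADD66 and 0.60 for STS1, and it was -0.59, -0.74 and -0.82 for NAS2, IRC25 and POC4. The last 3 thus ran against the mean of the subunits. Pearson's r does not measure the size of a change, and the share of all genes with such an r is not given here. A high r is not particular to these factors, since 10 genes outside the lists reached 0.993 to 0.996. POC4, a chaperone of the alpha ring, was lowest at -0.37, and STS1, which acts in the nuclear import of proteasomes, highest at 0.65. UMP1, which helps the beta rings mature and is then degraded, read -0.17 and -0.19 at 5 min, 0.07 and 0.14 at 15 min and -0.34 and -0.38 at 60 min. UMP1 changed by -0.04 ± 0.04 at 15 min of cooling (SE, limma adjusted p = 0.429).

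Over the means of the 11 conditions, each subunit was set against the mean of the other 31. Pearson's r was 0.87 to 1.00 with a median of 0.99, lowest in RPN5. The points share the reference and, in cooling, come from one series of samples, so these values are a description. Among the other genes of the array, the 10 whose profile was most like the mean of the 32 had r between 0.993 and 0.996. They were ATG33, NSG2, XYL2, CDC37, YPR172W, ARA1, GLO1, VPS29, YMR315W and YET1. CDC37, a cochaperone of protein kinases, went from 0.91 at 15 min of heat shock to -0.49 at 15 min of cooling, and ARA1, a dehydrogenase, from 1.98 to -1.11 over the reference.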

How the data were processed

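The authors deposited, for each of 22 arrays, the mean intensity and background of every spot in both channels, with nothing subtracted. They also deposited normalised log2 ratios per array, used here as an alternative after the sign of 3 arrays was turned to match the scanner signals. A deposited table of fold changes and p-values was not used. The submitters' processing notes name limma 2.12.0.

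From the intensities, log2 ratios were computed with R 4.3.3 and limma 3.58.1 by print-tip loess (48 blocks, span 0.4), with control spots and spots above 32768 left out of the curve, and averaged over the 2 spots of each probe. All 22 arrays entered 1 limma model holding the 11 conditions and the dye, with Benjamini-Hochberg adjustment over 5326 probes that carry a symbol. Heat shock was set against the common reference and cooling against 0 min. For genes with several probes the brightest was used.

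The dye follows the labels, in which array a has the sample in Cy3, whereas the design text has the sample in Cy5 first. The array letter is the replicate and marks the dye. The precision is limited by the 2 arrays of a condition. The fit was tested on simulated data of 5326 probes, at 15 min of heat shock and of cooling. Of the genes changed 2-fold 100% were called, and of those unchanged 0%. Of those changed 1.3-fold 0% were called, which the threshold of 1.7-fold sets in advance. The noise was drawn independently for each probe and array and no curve was fitted, so the scaling was not tested. Counts by adjusted p alone are not assessed here.

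Members and gene lists were chosen with earlier results of these data known. Values on every array are given, in each role, for the subunits highest and lowest at 15 min of heat shock and lowest at 15 min of cooling, for RPN4, UMP1, BLM10 and UBI4, and for pathway genes called at 15 min. RPN9, PRE5 and PRE7 were added after their values were seen. Alternatives covered the curve, the background, external control spots, the baseline, the dye term, the fold threshold and each array. Promoter and protein sequences were not used here.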

Additional observations from a re-analysis of the deposited data

Results flagged for a closer look

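The effect of heat shock differed between 15 and 60 min, by a direct limma contrast of the 2 times, in 6 subunits and 2 pathway genes, where 5.1% of all genes were called lower, so that the 2 of 31 pathway genes are near that share. The differences, 60 minus 15 min, were -1.01 in RPN9, -0.92 in PRE1, -0.87 in RPT6, -0.83 in PRE10, -0.79 in RPN12, -0.77 in RPN7, -1.03 in UBI4 and -0.98 in CDC48. RPN9, PRE1, PRE10 and RPN12 were at or below the reference at 60 min, and RPT6, RPN7, UBI4 and CDC48 above it. Without array b of 60 min 4 subunits were called. RPN7 came to -0.74 and was not called without array b of 15 min or without array a of 60 min, and RPT2 was called at -0.78 without array b of 15 min. UBI4 had the widest spread, with -0.55, no longer called, when array b of 15 min was left out and -1.52 when array a was. With scaling on external control spots 0 subunits were called in this contrast, and the share of all genes called under that scaling is not given here. Groups of 2 arrays allow no test for a single outlying array.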

How the results depend on the processing

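The direction of the median kept its sign in 15 and 30 min of heat shock and at 5 to 45 min of cooling under every alternative, and the number of calls at 1.7-fold did not hold. Scaling on external control spots moved the median of all genes by 0.20 at 45 and 60 min of heat shock and by 0.27 between 15 and 60 min, and its curve is extrapolated for genes brighter than a log2 intensity of 10.79. The cause of the other shifts was not tested. No planned search of promoters was run, for want of sequences. The array letter is both the replicate and the dye. Without the replicate block the calls were 8 at 15 min of heat shock, 2 at 30 min of cooling and 6 for 60 against 15 min. The block changed no count of calls at 1.7-fold. By adjusted p alone, 20 and 7 were higher at 45 and 60 min of heat shock without it, against 23 and 11 with it. At 5 min of cooling 23 were lower without it, against 25. At 5, 15 and 30 min of heat shock the counts stayed at 27, 32 and 32. Deviations of same-letter arrays correlated at -0.13 to 0.82 over 55 pairs of conditions.

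The calls in the direction named in the report were, with the adjusted p alone, 27, 32, 32, 23 and 11 at the times of heat shock, 21 at 37 °C, 25, 29, 28, 29 and 24 at the times of cooling, 26 for 15 against 5 min, 31 for 60 against 15 min, 18 for 60 min against 37 °C and 30 for 60 min of cooling against the reference. With the 37 °C culture as baseline 15 were called at 15 min and 13 at 30 min of heat shock. With external control spots 0 were called at 15 and 30 min of heat shock, at 30 and 45 min of cooling, for 60 against 15 min and for 60 min of cooling against the reference. With 1 curve per array, 12 were called at 15 min of heat shock, 1 at 30 min and 0 at 45 min of cooling, and 0 for 60 min of cooling against the reference. With no curve 2 and 1 were called at 15 and 30 min of heat shock, 1 and 0 at 30 and 45 min of cooling, 17 for 60 against 15 min and 0 for 60 min of cooling against the reference. In the deposited log2 ratios 2 were called at 45 min of cooling and 1 for 15 against 5 min. The shares of all genes called under these other scalings and the other baseline are not given here. These counts therefore describe the processing and cannot be set against all genes.

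The medians were, with the 37 °C culture as baseline, 0.46, 0.74, 0.71, 0.30 and 0.14 at the times of heat shock. With external control spots they were 0.38, 0.44 and 0.084 at 15, 30 and 60 min, -0.31 at 37 °C, -0.25, -0.31, -0.31, -0.17 and 0.036 in cooling, 0.043 for 15 against 5 min, -0.29 for 60 against 15 min, 0.37 for 60 min against 37 °C and -0.28 for 60 min of cooling against the reference. With 1 curve per array they were 0.35, 0.71, 0.66 and 0.21 at 5 to 45 min, -0.18 at 37 °C, -0.26, -0.39, -0.34, -0.30 and -0.22 in cooling, 0.36, -0.65 and 0.20 for the 3 comparisons of times and -0.39 for 60 min of cooling against the reference. With no curve they were 0.50, -0.0023 and -0.22 at 30, 45 and 60 min, -0.19 at 37 °C, -0.23, -0.38, -0.39 and -0.17 at 5, 15, 30 and 60 min of cooling, 0.26, -0.77 and -0.037 for the comparisons of times and -0.36 for 60 min of cooling against the reference. In the deposited log2 ratios they were 0.18 at 45 min of heat shock and -0.31, -0.41 and -0.35 at 5, 30 and 45 min of cooling, and with normexp -0.29 at 5 min of cooling and -0.40 for 60 min of cooling against the reference.

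The core minus regulatory particle difference was 0.030, 0.043 and 0.044 at 15, 45 and 60 min with the 37 °C culture as baseline. In the deposited log2 ratios it was -0.11, -0.020 and -0.094 at 15, 30 and 45 min of heat shock and 0.0052 and -0.11 at 5 and 30 min of cooling. With external control spots it was -0.040 at 30 min of heat shock and -0.014, -0.019 and -0.044 at 30, 45 and 60 min of cooling. With 1 curve per array it was -0.15, -0.046 and -0.12 at 15, 30 and 45 min, -0.20 at 37 °C and -0.071, 0.013, 0.041, 0.022 and 0.046 in cooling. With no curve it was -0.048, -0.092 and -0.084 at 30, 45 and 60 min and -0.0049, 0.0030, -0.00896 and -0.039 at 5, 30, 45 and 60 min of cooling.

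With each array left out in turn, the calls ranged from 0 to 1 at 5 min of heat shock, 8 to 9 at 15 min, 6 to 7 at 30 min, 0 to 1 at 15 min, 1 to 2 at 30 min and 0 to 1 at 45 min of cooling and 4 to 6 for 60 against 15 min. The median ranged from 0.54 to 0.57 at 30 min and 0.166 to 0.170 at 45 min of heat shock, -0.60 to -0.56 for 60 against 15 min, -0.30 to -0.28, -0.41 to -0.37, -0.35 to -0.30 and -0.29 to -0.23 at 5, 30, 45 and 60 min of cooling and -0.397 to -0.375 for 60 min of cooling against the reference. The difference ranged from -0.28 to -0.080, -0.0098 to 0.039 and -0.12 to -0.068 at 5, 30 and 45 min of heat shock, -0.041 to 0.081 for 60 min against 37 °C, and -0.048 to -0.0033, -0.11 to -0.023, -0.16 to -0.033 and -0.15 to -0.065 at 5, 30, 45 and 60 min of cooling.

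Of the genes named by rule the sign turned in 7 of 725 values, and in 661 the call was kept. These values cover 15 min of heat shock, 15 min of cooling and 60 against 15 min, and for RPN4 also 5 min and 15 against 5 min. Turns outside them, as in PRE5 at 15 min of cooling, are not counted. At 5 min of heat shock PRE8 came to 0.011 and BLM10 to -0.012 with 1 curve per array, against -0.0074 and 0.026 in the main fit. RPN5 came to -0.063 at 15 min of heat shock and 0.15 for 60 against 15 min in the deposited log2 ratios, UMP1 to 0.037 at 15 min of cooling with 1 curve per array, and BLM10 to 0.048 for 60 against 15 min with external control spots. RPN4 for 60 against 15 min came to -0.12 with 1 curve per array, -0.24 with no curve and from -0.016 to 0.060 with single arrays left out.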
